A study of Mus musculus with 8 samples.

Results

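Livers of mice on an alcohol diet were compared with livers of mice on a control diet over both genotypes of the study, to find the genes that alcohol changed alike whether or not the gut epithelium carried Elf4. All 8 libraries of the series entered the comparison, 4 labelled EtOH and 4 labelled Control, with genotype as a covariate. The test was run over the whole count table, in which 13993 of 19267 genes had enough counts to be tested. Genes named in the text came from lists made with earlier results of these data known, or were picked for the size or test of their change. Some genes stood in more than 1 list.

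The 8 libraries were RNA-seq of liver from male C57BL/6 mice of 9 weeks of age, 2 libraries in each of 4 groups. WT-Control and WT-EtOH mice had intact Elf4, and per the study's methods they carried the Cre transgene. The Elf4-/- Control and Elf4-/- EtOH mice were Elf4 fl/fl mice with Villin-Cre, in which the villin promoter drives Cre in intestinal epithelium, so that hepatocytes were not the target of the deletion. EtOH mice had been fed, from 6 weeks of age and for 21 days, the liquid diet of Lieber and DeCarli with alcohol at 5% (w/v), and Control mice were pair-fed a diet in which maltose dextrin supplied the same calories. The labels do not say that the 2 libraries of a group came from separate animals, so p-values measure only the spread between these samples.

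Hepatocytes oxidise ethanol through alcohol dehydrogenases and the cytochrome P450 Cyp2e1 to acetaldehyde, and aldehyde dehydrogenases carry acetaldehyde on to acetate. The nuclear receptors CAR, PXR and PPAR alpha and the transcription factor NRF2 control much of the liver's detoxification and fatty acid oxidation: CAR and PXR act on Cyp2b and Cyp3a genes, PPAR alpha on Cyp4a genes and acyl-CoA oxidation, and NRF2 on glutathione and quinone metabolism. Many mouse liver genes also differ between the sexes, because the pulsatile growth hormone of males and the near-continuous growth hormone of females act differently on the liver through STAT5b, BCL6 and CUX2.

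Library totals ran from 6171051 to 9157362 counts. Genes of the mitochondrial genome took 18.5 to 33.7% of counts in control-diet libraries and 10.8 to 22.1% in EtOH libraries. Elf4 itself was low in liver, at 1.12 and 2.02 CPM in the WT-Control libraries and 1.23 and 0.895 in Elf4-/- Control, against 3.41 and 3.67 in WT-EtOH and 2.23 and 4.51 in Elf4-/- EtOH, with 6 to 12 counts per control-diet library. All 4 EtOH libraries were above all control-diet libraries, and the log2 difference between diets was 1.40 ± 0.40 (edgeR adjusted p = 0.026). Its call was lost in 8 of the alternatives tried, 6 of them the removal of 1 library: either WT-EtOH library, either Elf4-/- Control library, WT-Control 1 or Elf4-/- EtOH 2. Both genotypes held Elf4 reads, and since the deletion is in the intestine, its liver level does not check the genotype labels.

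On the first principal component of log2 CPM, which held 51.6% of the variance, the EtOH libraries were at 52.0 and 58.3 (WT-EtOH) and 55.9 and 17.4 (Elf4-/- EtOH), and the control-diet libraries lay between -60.5 and -30.0. Elf4-/- EtOH 2 was thus the EtOH library nearest to the controls. Between the 2 replicates of a group, the SD of the log2 difference was 0.681 in Elf4-/- EtOH, 0.504 in WT-Control, 0.363 in Elf4-/- Control and 0.354 in WT-EtOH (9398 genes averaging 50 counts or more), so the Elf4-/- EtOH pair was the least alike.

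Alcohol feeding changed 3468 of the 13993 genes tested (24.8%; quasi-likelihood test of edgeR, with p adjusted by Benjamini-Hochberg and a threshold of 0.05), 1746 higher (12.5%) and 1722 lower (12.3%). At an unadjusted p under 0.05, 2718 genes were higher and 2716 lower. The change was at least 2-fold in 893 of the genes that rose and 675 of those that fell. In bulk liver, fewer cells of a type and less RNA per cell cannot be told apart, and this holds for each gene below. The median log2 change over all genes tested was 0.02. Scaling by library totals alone moved that median to 0.211 and gave 2110 genes higher and 784 lower (72.9% higher, against 50.3%), so a small change is relative to that shift. The counts higher and lower were 1073 and 1085 without WT-Control 1, 931 and 890 without WT-EtOH 1, and 984 and 966 without WT-EtOH 2, and without Elf4-/- Control 2 the count lower was 1129.

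The response had the same sign in both genotypes for 3466 of the 3468 genes, which a test over both genotypes favours. With the WT libraries alone 1758 genes were higher and 1755 lower, and with the Elf4-/- libraries alone 22 and 18. A gene was counted as changed alike where it passed the test over both genotypes, moved the same way in each genotype's own contrast, had a smaller log2 change of at least 0.5 times the larger, and did not pass the test of the difference between genotypes. By that rule 2538 genes (18.1%) were changed alike, 1293 higher (9.24%) and 1245 lower (8.9%). In 3897 genes (27.8%) the 4 EtOH libraries did not overlap the 4 control-diet libraries in CPM, among them 1140 of the genes changed alike that rose and 1117 of those that fell. No gene (0%) passed the edgeR test of the interaction between genotype and diet after adjustment; 1411 had an unadjusted p under 0.05, and DESeq2 called 107 after adjustment. The edgeR test called 139 without Elf4-/- EtOH 2, 62 without Elf4-/- EtOH 1 and 1 without WT-EtOH 1, and 7 with no filter on low counts. A p that misses the threshold does not show that the genotypes responded equally.

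**Figure D1:**
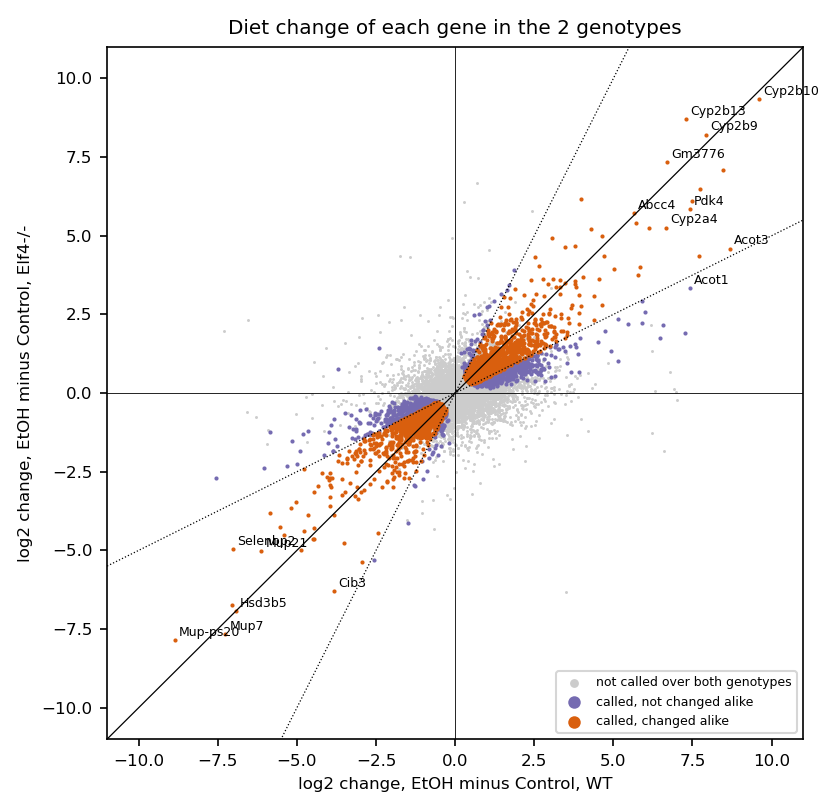
Log2 change with EtOH in WT mice (x axis) against the log2 change in Elf4-/- mice (y axis), 1 point per gene tested, with genes not called in grey, called but not alike in purple and changed alike in orange. The solid line marks equal change and the dotted lines a ratio of 0.5 between the genotypes; 3466 of 3468 called genes had the same sign in both, and 2641 of these had the larger change in WT.

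The size of the change in each genotype is given as a description, since no gene passed the edgeR test of the interaction with all 8 libraries. Of the called genes with the same sign, 2641 had the larger log2 change in WT and 825 in Elf4-/- mice. Among the 930 called genes that were not alike, 828 had an Elf4-/- change under 0.5 times the WT change and 100 the reverse. Over the genes changed alike, the median size was 1.02 in WT and 0.83 in Elf4-/- mice on the log2 scale. Each EtOH library's median over the genes changed alike that rose, relative to its own genotype's controls, was 1.06 and 1.12 in WT-EtOH and 0.965 and 0.723 in Elf4-/- EtOH; these libraries also chose the genes, so the values are a description. The lowest was that of Elf4-/- EtOH 2.

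The largest rises were in genes of drug and toxin metabolism. Among genes changed alike that averaged 50 counts or more and had no overlap between diets, the 12 largest rises held 4 cytochrome P450 genes of the Cyp2 family, Cyp4a14 of the Cyp4 family, and 4 glutathione S-transferases, with Pdk4, Acot3 and Abcc4. Cyp2b9 (GRCm38 chr7:26173411-26210661, plus strand), a CAR-responsive P450 that adult male liver normally holds at a low level, was at 0.932 and 0.92 CPM in the WT-Control libraries and 1.33 and 0.448 in Elf4-/- Control, against 161 and 296 in WT-EtOH and 388 and 188 in Elf4-/- EtOH. Every EtOH library was far above every control-diet library, in both genotypes. No overlap was required of these 12 rises and of the 12 largest falls below, so it is no separate result for them. Its log2 change was 8.09 ± 0.42 (edgeR adjusted p = 1.15e-05), the smallest adjusted p among the genes named here.

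Cyp2b10, the P450 most used as a marker of CAR activity, was at 0 and 0 CPM in the WT-Control libraries and 0.102 and 0.298 in Elf4-/- Control, against 14.3 and 12.2 in WT-EtOH and 260.3 and 1.73 in Elf4-/- EtOH. It had only 3 counts over the 4 control-diet libraries against 1879 over the 4 EtOH libraries, a ratio of 541 with a 95% counting interval of 185 to 2628, and Elf4-/- EtOH 1 held most of the EtOH counts. The fitted log2 change was 9.37 ± 3.29 (edgeR adjusted p = 0.0043), and 5.56 without that library; a fitted change from so few counts depends on the prior count and is no bound. Cyp2b13, a female-biased neighbour, had 4 counts in control-diet libraries against 1342, a ratio of 290 (113 to 1066), and a log2 change of 8.15 ± 1.69 (edgeR adjusted p = 0.000722). All 4 EtOH libraries were above all 4 control-diet libraries for both genes, but Cyp2b10 reached only 1.73 CPM in Elf4-/- EtOH 2.

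The promoter windows of these 3 genes, which rose together, are shown from RefSeq (GRCm38.p6; 250 bases before to 50 bases after the gene start, 5′ to 3′ on the gene's strand), with capitals at bases that differ from the compared window. Cyp2b9 (chr7:26173159-26173458, plus strand) and Cyp2b13 (chr7:26061245-26061544, plus strand) were compared with each other, and Cyp2b10 (chr7:25897408-25897707, plus strand) with Cyp2b9.
Cyp2b9: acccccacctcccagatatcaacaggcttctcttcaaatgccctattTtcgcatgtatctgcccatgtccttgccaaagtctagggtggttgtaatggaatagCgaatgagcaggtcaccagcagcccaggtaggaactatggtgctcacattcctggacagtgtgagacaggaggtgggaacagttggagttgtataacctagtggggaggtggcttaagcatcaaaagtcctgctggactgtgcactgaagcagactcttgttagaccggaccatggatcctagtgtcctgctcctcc
Cyp2b13: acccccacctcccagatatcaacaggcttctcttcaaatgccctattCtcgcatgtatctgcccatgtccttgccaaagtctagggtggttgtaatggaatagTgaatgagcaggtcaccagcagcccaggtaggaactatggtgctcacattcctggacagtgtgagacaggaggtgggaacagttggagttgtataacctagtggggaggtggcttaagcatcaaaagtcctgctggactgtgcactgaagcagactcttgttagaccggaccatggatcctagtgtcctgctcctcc
Cyp2b10: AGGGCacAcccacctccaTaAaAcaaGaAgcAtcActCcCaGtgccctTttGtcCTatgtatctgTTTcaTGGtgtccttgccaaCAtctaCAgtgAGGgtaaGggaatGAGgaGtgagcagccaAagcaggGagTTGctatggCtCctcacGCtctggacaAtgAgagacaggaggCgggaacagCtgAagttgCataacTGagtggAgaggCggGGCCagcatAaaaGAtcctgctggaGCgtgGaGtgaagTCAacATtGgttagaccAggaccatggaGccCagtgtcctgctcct
The Cyp2b9 and Cyp2b13 windows differed at 2 of 300 bases. The Cyp2b10 window had 223 bases identical to that of Cyp2b9, 66 mismatches and 22 bases in gaps. No 150-base stretch of these 3 genes' transcripts was shared with another gene.

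Cyp2a4 and Cyp2a5, steroid and coumarin hydroxylases of near-identical sequence, both rose. Cyp2a4 was at 6.53 and 0.552 CPM in the WT-Control libraries and 8.51 and 0.746 in Elf4-/- Control, against 196 and 527 in WT-EtOH and 228 and 147 in Elf4-/- EtOH. Cyp2a5 was at 409 and 491 CPM in the WT-Control libraries and 514 and 718 in Elf4-/- Control, against 4801 and 6678 in WT-EtOH and 5383 and 2557 in Elf4-/- EtOH. Both had every EtOH library above every control-diet library, with log2 changes of 5.91 ± 0.65 (edgeR adjusted p = 0.00109) and 3.18 ± 0.31 (edgeR adjusted p = 0.000657). For the pair, 4.22% of 150-base windows of Cyp2a4 and 4.56% of those of Cyp2a5 matched another gene, and reads from those windows cannot be assigned to 1 gene. Their promoter windows (chr7:26306942-26307241, plus strand, and chr7:26835089-26835388, plus strand), with capitals at bases that differ between them, had 294 identical bases, 5 mismatches and 2 bases in gaps:
Cyp2a4: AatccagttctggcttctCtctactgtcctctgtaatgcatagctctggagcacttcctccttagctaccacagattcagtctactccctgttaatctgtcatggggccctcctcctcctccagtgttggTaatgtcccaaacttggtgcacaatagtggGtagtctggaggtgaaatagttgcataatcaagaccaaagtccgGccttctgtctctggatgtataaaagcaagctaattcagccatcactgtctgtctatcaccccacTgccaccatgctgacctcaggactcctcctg
Cyp2a5: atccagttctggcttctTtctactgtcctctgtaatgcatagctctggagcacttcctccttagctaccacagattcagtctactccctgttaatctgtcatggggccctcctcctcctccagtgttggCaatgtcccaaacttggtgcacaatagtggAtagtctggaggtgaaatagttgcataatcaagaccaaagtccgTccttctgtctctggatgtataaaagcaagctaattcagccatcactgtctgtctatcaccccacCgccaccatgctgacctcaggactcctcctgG

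Over the list of Cyp1 to Cyp3 enzymes, 41 of 49 listed were tested. Of these, 18 rose and 6 fell, all 24 of them alike in both genotypes. The share called was 58.5% against 24.8% of all genes tested, with a median log2 change of 0.64. Genes near 0 in controls, such as Cyp2b10 (3 counts) and Cyp2b13 (4 counts), could enter the test through the EtOH libraries alone. Shares called, here and in the lists below, thus hold for the genes tested. Cyp3a11, the main drug-oxidising P450 under PXR control, was at 259 and 466 CPM in the WT-Control libraries and 719 and 674 in Elf4-/- Control, against 2546 and 2472 in WT-EtOH and 3642 and 4264 in Elf4-/- EtOH. Its 4 EtOH libraries lay above the controls in both genotypes, with log2 changes of 2.79 ± 0.31 in WT and 2.51 ± 0.31 in Elf4-/- mice and 2.65 ± 0.23 (edgeR adjusted p = 0.000371) over both; the difference between genotypes was -0.29 (95% interval -1.26 to 0.69). The members that fell were Cyp2u1, Cyp2d13, Cyp2d11, Cyp2c23, Cyp2d22 and Cyp2d40.

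Conjugation enzymes of the glutathione pathway rose. Of 23 glutathione S-transferases, which couple glutathione to reactive compounds, 22 were tested and 13 rose, all alike, with none lower (59.1% called against 24.8% of all genes, median log2 change 1.23). Gsta2 was at 4.29 and 2.39 CPM in the WT-Control libraries and 6.46 and 6.41 in Elf4-/- Control, against 191 and 278 in WT-EtOH and 406 and 82.7 in Elf4-/- EtOH, with every EtOH library above every control-diet library and a log2 change of 5.64 ± 0.45 (edgeR adjusted p = 0.000371). Gstm3 rose by 5.55 ± 0.58 and Gstm1, from 866 ± 218 CPM to 5704 ± 2552 CPM (SD, n = 4 each), by 2.74 ± 0.34 (edgeR adjusted p = 0.00122) on the log2 scale. Gsta1 (6.92 ± 1.25) and Gm3776 (7.05 ± 1.86) cannot be fully separated, since 68.4% and 62.5% of their 150-base windows match another gene. Gm3776 had 4 counts in control-diet libraries against 670 in EtOH libraries, a ratio of 145 (56.3 to 533). It could enter the test through the EtOH libraries alone.

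Genes that respond to NRF2 rose with them: 19 of 21 listed were tested, and 13 rose and none fell, 11 alike (68.4% called, median 1.23). Nqo1, a quinone reductase, was at 2.24 and 3.13 CPM in the WT-Control libraries and 3.18 and 2.69 in Elf4-/- Control, against 29.6 and 45.5 in WT-EtOH and 52 and 14.1 in Elf4-/- EtOH. The diets did not overlap, and the log2 change was 3.62 ± 0.40 (edgeR adjusted p = 0.000679), 3.80 ± 0.62 in WT and 3.47 ± 0.57 in Elf4-/- mice. Ephx1, the microsomal epoxide hydrolase, rose by 2.57 ± 0.26 (edgeR adjusted p = 0.000657). Abcc4, an efflux pump for bile acids and conjugates on the sinusoidal membrane, rose from 0.661 ± 0.349 CPM to 33.8 ± 19.5 CPM (SD, n = 4 each), 5.67 ± 0.73 on the log2 scale. Cbr3, a carbonyl reductase, rose by 4.10 ± 0.83 but not alike, 6.56 ± 1.27 in WT and 2.15 ± 0.74 in Elf4-/- mice. Calls in the glutathione S-transferase and NRF2 lists held with each library left out in turn for 12 of 13 genes in each.

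Glucuronosyl- and sulfotransferases, which make hydroxylated compounds water-soluble, moved both ways: 4 of 21 tested rose and 3 fell (33.3% called against 24.8% of all genes). Rises numbered 2 without either WT-Control library, either WT-EtOH library, Elf4-/- Control 2 or Elf4-/- EtOH 1. Ugt2b35 rose by 1.27 ± 0.16 (edgeR adjusted p = 0.00107), with the same change of 1.27 in each genotype. Ugt2b38 changed by -4.39 ± 0.63 (edgeR adjusted p = 0.00151) and Sult5a1 changed by -2.31 ± 0.51 (edgeR adjusted p = 0.0118). The list's median log2 change of 0.18 turned negative when Elf4-/- Control 1 was left out.

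**Figure D2:**
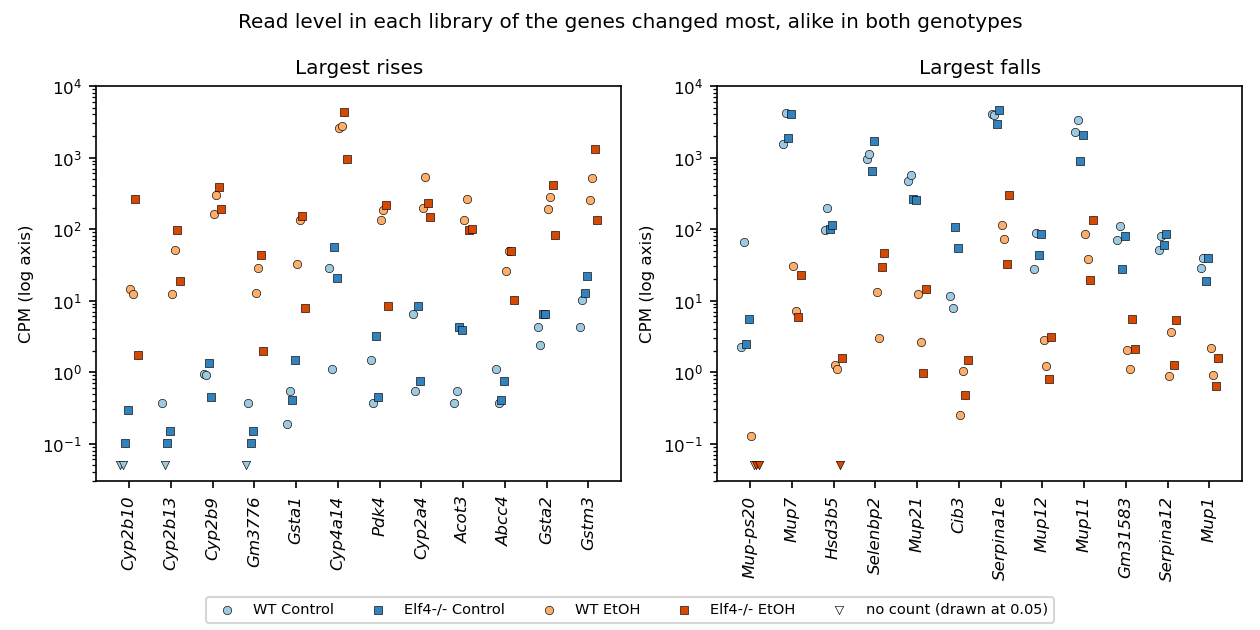
CPM per library on a log axis for the 12 largest rises and the 12 largest falls among genes changed alike, with 1 point per library coloured by diet and shaped by genotype. Triangles are libraries with no count, drawn at 0.05 CPM. The genes were picked for a mean of 50 counts or more and no overlap between diets. By that choice, no gene shown has an EtOH library inside the range of the control-diet libraries.

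Most genes tested in the lists of peroxisomal and mitochondrial fatty acid oxidation rose, and some of the microsomal omega-hydroxylases did. Cyp4a14, a PPAR alpha-responsive fatty acid omega-hydroxylase, was at 28.3 and 1.1 CPM in the WT-Control libraries and 56.6 and 20.4 in Elf4-/- Control, against 2568 and 2717 in WT-EtOH and 4362 and 968 in Elf4-/- EtOH. Its relative Cyp4a10 was at 52 and 40.9 CPM in the WT-Control libraries and 106 and 86.7 in Elf4-/- Control, against 1100 and 1093 in WT-EtOH and 1563 and 826 in Elf4-/- EtOH. Every EtOH library of either gene was above every control-diet library, with Elf4-/- EtOH 2 the lowest. The log2 changes were 6.78 ± 0.71 (edgeR adjusted p = 0.0013) and 4.09 ± 0.26 (edgeR adjusted p = 0.000125). Of 13 Cyp4 genes tested, 3 rose and 3 fell, with a median of 0.06 whose sign changed between settings (46.2% called against 24.8% of all genes). Falls numbered 1 without WT-Control 2, either WT-EtOH library or Elf4-/- Control 2, and rises 5 without Elf4-/- EtOH 2; the male-biased Cyp4a12b was among those that fell (-1.59 ± 0.34, edgeR adjusted p = 0.00948).

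In the peroxisomal list, 19 of 20 were tested, and 11 rose and none fell, 7 alike (57.9% called against 24.8% of all genes, median 0.55). Ehhadh, the bifunctional enzyme of peroxisomal beta-oxidation, was at 36.5 and 44.5 CPM in the WT-Control libraries and 80.2 and 64.7 in Elf4-/- Control, against 858 and 843 in WT-EtOH and 953 and 270.5 in Elf4-/- EtOH. All EtOH libraries exceeded the controls, and the log2 change was 3.73 ± 0.37 (edgeR adjusted p = 0.000722). Hacl1 of alpha-oxidation rose by 2.39 ± 0.24 and Crat, carnitine acetyltransferase, by 2.0 ± 0.30. Acaa1b, a thiolase, rose by 1.41 ± 0.32, 2.05 ± 0.35 in WT and 0.77 ± 0.35 in Elf4-/- mice.

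Of 20 mitochondrial beta-oxidation genes, 16 rose and none fell, 13 alike, a share of 80.0% against 24.8% of all genes, with a median of 0.88. The summed level of the list overlapped between diets, at 7823 to 11133 CPM in control-diet libraries and 6624.5 to 11300 CPM in EtOH libraries. Elf4-/- EtOH 1 had the lowest sum. Etfdh, which passes electrons from acyl-CoA dehydrogenases to ubiquinone, rose by 1.46 ± 0.19 (edgeR adjusted p = 0.00121), the short-chain dehydrogenase Acads by 1.29 ± 0.14 (edgeR adjusted p = 0.000722), and the dienoyl-CoA reductase Decr1 by 1.29 ± 0.17 (edgeR adjusted p = 0.00136). The carnitine transporter Slc22a5 rose by 1.70 ± 0.41 (edgeR adjusted p = 0.0165), with Elf4-/- EtOH 2 at 23.6 CPM, below all 4 control-diet libraries; the call was lost without WT-Control 1, WT-Control 2 or Elf4-/- EtOH 1. With each library left out in turn, 12 of the 16 calls held.

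Acyl-CoA thioesterases, which release free fatty acids from acyl-CoA, also rose: 7 of 11 tested rose and none fell, 5 alike (63.6% called, median 1.41). Acot1, the cytosolic form, was at 1.12 and 0.736 CPM in the WT-Control libraries and 4.71 and 8.5 in Elf4-/- Control, against 148 and 177 in WT-EtOH and 86.7 and 45.4 in Elf4-/- EtOH. The control-diet level was lower in WT than in Elf4-/- mice, and the log2 change over both was 4.81 ± 0.60 (edgeR adjusted p = 0.00144), 7.43 ± 0.59 in WT and 3.34 ± 0.35 in Elf4-/- mice. Acot3, a peroxisomal form, rose by 5.88 ± 0.57, 8.68 ± 0.67 in WT and 4.59 ± 0.32 in Elf4-/- mice. It was counted as changed alike with a ratio close to the limit of 0.5. Acot2, the mitochondrial form, rose by 3.86 ± 0.38 (edgeR adjusted p = 0.000413). Pdk4, the kinase that shuts pyruvate dehydrogenase, was at 1.49 and 0.368 CPM in the WT-Control libraries and 3.18 and 0.448 in Elf4-/- Control, against 135 and 186 in WT-EtOH and 219 and 8.36 in Elf4-/- EtOH; Elf4-/- EtOH 2 was far below the other EtOH libraries but above every control, and the log2 change was 6.45 ± 0.98 (edgeR adjusted p = 0.00182). In the list of ketogenesis and the fasting response 5 of 13 tested rose and none fell (38.5% called, median 0.72), among them Vnn1 (1.69 ± 0.25), a pantetheinase.

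**Figure D3:**
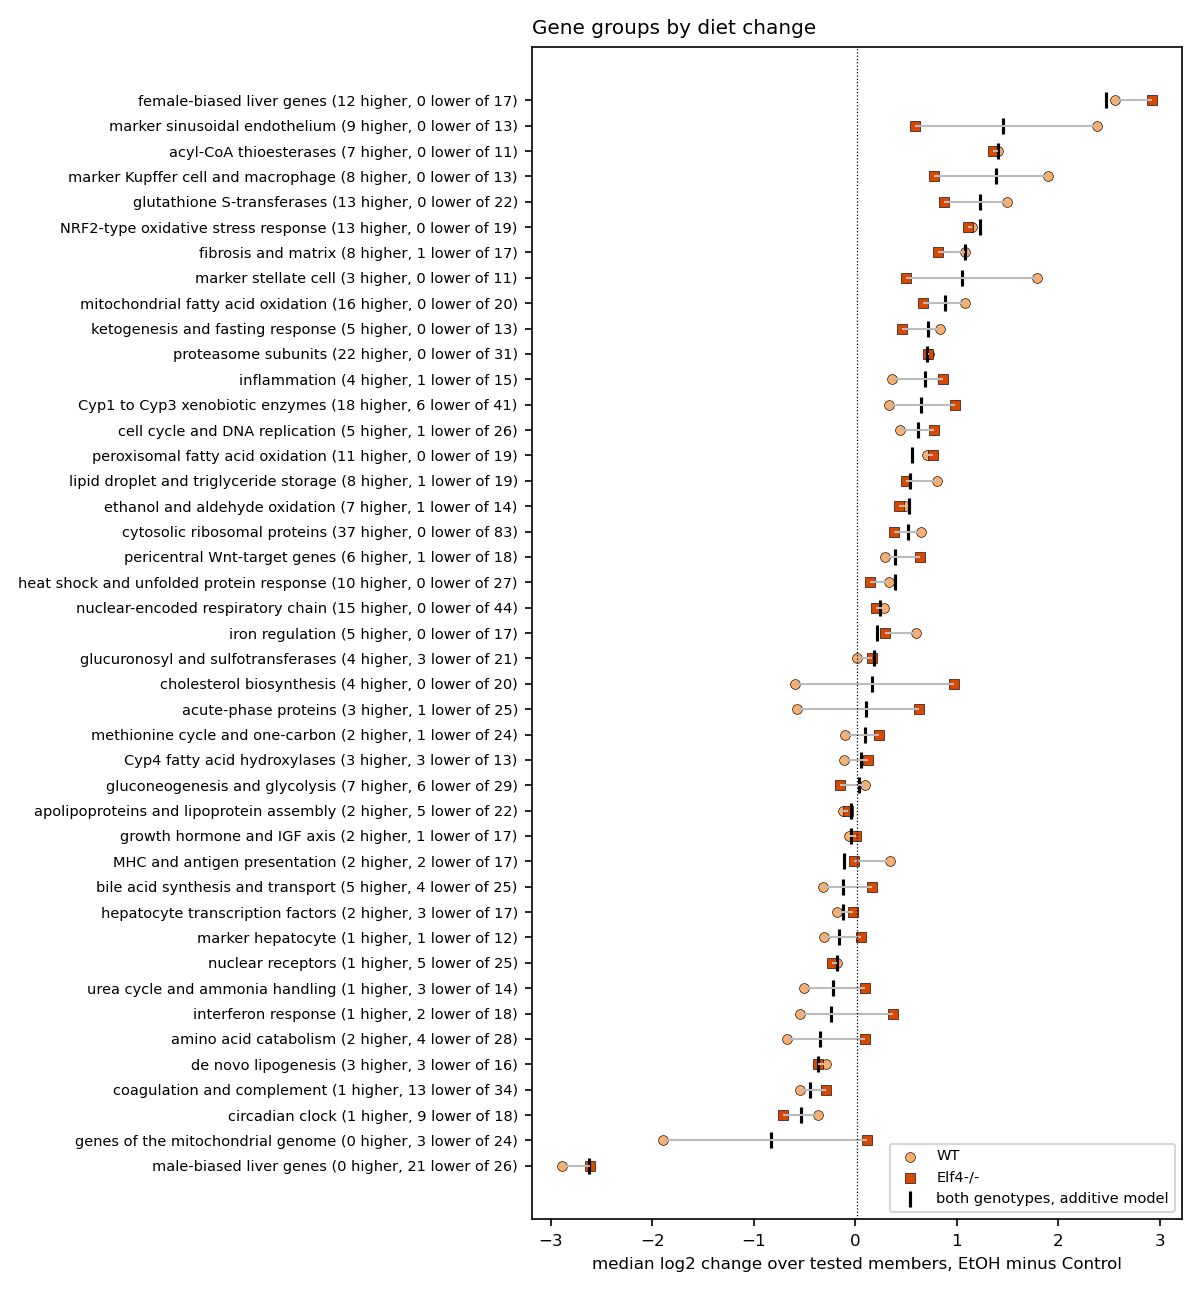
Median log2 change with EtOH in each gene group with at least 10 genes tested, for WT, for Elf4-/- mice and for the fit over both genotypes, with the counts higher and lower beside each name. The dotted line is the median of all genes tested (0.02); female-biased genes had the highest median over both genotypes (2.47) and male-biased genes the lowest (-2.63).

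Genes of fatty acid uptake and lipid droplets rose in part. Of 19 tested of 21 listed, 8 rose, 1 fell and 10 were not called, all but 1 of the 9 called alike (47.4% called against 24.8% of all genes, median 0.53). Cd36, a fatty acid translocase, was at 6.53 and 4.6 CPM in the WT-Control libraries and 5.64 and 6.26 in Elf4-/- Control, against 32.8 and 69 in WT-EtOH and 85.8 and 38.7 in Elf4-/- EtOH. All EtOH libraries were above all controls, with changes of 3.19 ± 0.47 in WT and 3.38 ± 0.44 in Elf4-/- mice, a difference of 0.19 (95% interval -1.24 to 1.62) and 3.29 ± 0.31 (edgeR adjusted p = 0.000439) over both. Plin2, a coat protein of lipid droplets, rose from 98.9 ± 11.2 CPM to 591 ± 179.7 CPM (SD, n = 4 each), 2.54 ± 0.22 (edgeR adjusted p = 0.000411), and Gpat3, which acylates glycerol phosphate, by 2.85 ± 0.37 (edgeR adjusted p = 0.00112). Without WT-Control 1 the count of rises was 5.

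De novo lipogenesis did not move as 1 group: of 16 tested, 3 rose and 3 fell (37.5% called), with a median of -0.36. Srebf1, the transcription factor that drives the pathway, changed by -1.97 ± 0.43 (edgeR adjusted p = 0.0123), -2.71 ± 0.54 in WT and -1.23 ± 0.54 in Elf4-/- mice, and lost its call without WT-EtOH 1. Scd2, a stearoyl-CoA desaturase, rose by 1.96 ± 0.32 (edgeR adjusted p = 0.00247). Acacb, the mitochondrial acetyl-CoA carboxylase that limits fatty acid entry into mitochondria, rose by 1.57 ± 0.20 (edgeR adjusted p = 0.0012). The diets overlapped for Acacb, with WT-EtOH at 71.9 and 69.9 CPM against 88.04 in Elf4-/- Control 1. Within each genotype its EtOH libraries were above the controls. No fall was called when WT-EtOH 1 was left out, and 6 were without Elf4-/- EtOH 2. In cholesterol synthesis 4 of 20 rose, a share below the 24.8% of all genes, and the list's median was -0.59 in WT and 0.97 in Elf4-/- mice. The count of rises was 2 without WT-Control 1, WT-EtOH 1 or Elf4-/- Control 2.

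Enzymes that oxidise ethanol and its aldehydes rose in 7 of 14 and fell in 1, 7 of the 8 alike (57.1% called, median 0.52). Aldh1a1, a cytosolic retinaldehyde and aldehyde dehydrogenase, was at 172 and 229 CPM in the WT-Control libraries and 248 and 319 in Elf4-/- Control, against 952 and 1209 in WT-EtOH and 2416 and 872 in Elf4-/- EtOH. Its EtOH libraries lay above the controls in both genotypes, 2.48 ± 0.29 (edgeR adjusted p = 0.00102). Adh1, the main hepatic alcohol dehydrogenase, rose from 887 ± 244 CPM to 2149 ± 121 CPM (SD, n = 4 each), 1.31 ± 0.22 (edgeR adjusted p = 0.00309), Aldh3a2 of fatty aldehyde oxidation by 1.34 ± 0.19 (edgeR adjusted p = 0.00172), and Acss3, a mitochondrial acyl-CoA synthetase, by 1.92 ± 0.26 (edgeR adjusted p = 0.00156). With each library left out in turn, 4 of the 7 rises kept the call.

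Sex-biased liver genes moved in opposite directions in these males. All 26 male-biased genes listed were tested; 21 fell and none rose, 19 alike (80.8% lower against 12.3% of all genes), with a median of -2.63, and 20 kept the call with each library left out. Of 26 female-biased genes listed, 17 had enough counts to be tested, and 12 of these rose and none fell, 10 alike (70.6% higher against 12.5%; median 2.47). A gene low in males could enter the test through the EtOH libraries alone, so the female-biased count holds for those tested, not for the list. Some members stood in other lists too, such as Cyp2b9, Cyp2b13, Cyp2a4 and Acot3.

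The major urinary proteins, pheromone carriers secreted by male liver, held the largest falls. Mup7 was at 1544 and 4183 CPM in the WT-Control libraries and 1855 and 4014 in Elf4-/- Control, against 30.4 and 7.03 in WT-EtOH and 5.9 and 22.9 in Elf4-/- EtOH. Every EtOH library was far below every control, with a log2 change of -7.46 ± 0.53 (edgeR adjusted p = 0.000371). Mup20, known as darcin, fell from 4214 ± 424 CPM to 508 ± 283 CPM (SD, n = 4 each, -3.05 ± 0.38, edgeR adjusted p = 0.00138), and Mup3, with the most reads of the members named, from 9233 ± 1170 CPM to 2173 ± 1314 CPM (-2.09 ± 0.48, edgeR adjusted p = 0.0137), with 449 CPM in Elf4-/- EtOH 1 and 3614 in Elf4-/- EtOH 2. Mup12 (-4.94), Mup11 (-4.90) and Mup1 (-4.56) fell too, but 75.9%, 64.8% and 52.5% of their 150-base windows match other genes, as do 67.1% of those of Mup7, so counts could be split among the family. No 150-base window of Mup3 or Mup21 (-5.57 ± 0.58, edgeR adjusted p = 0.00102) matched another gene.

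The promoter windows of Mup3 (chr4:62087268-62087567, minus strand) and Mup21 (chr4:62150792-62151091, minus strand) had 276 identical bases, 18 mismatches and 12 bases in gaps; capitals mark bases that differ between them:
Mup3: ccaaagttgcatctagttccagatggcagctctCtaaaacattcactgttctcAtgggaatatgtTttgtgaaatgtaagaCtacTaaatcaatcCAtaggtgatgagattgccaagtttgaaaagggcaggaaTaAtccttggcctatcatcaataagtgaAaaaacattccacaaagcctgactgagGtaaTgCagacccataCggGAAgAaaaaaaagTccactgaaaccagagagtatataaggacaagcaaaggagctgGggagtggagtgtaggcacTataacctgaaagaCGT
Mup21: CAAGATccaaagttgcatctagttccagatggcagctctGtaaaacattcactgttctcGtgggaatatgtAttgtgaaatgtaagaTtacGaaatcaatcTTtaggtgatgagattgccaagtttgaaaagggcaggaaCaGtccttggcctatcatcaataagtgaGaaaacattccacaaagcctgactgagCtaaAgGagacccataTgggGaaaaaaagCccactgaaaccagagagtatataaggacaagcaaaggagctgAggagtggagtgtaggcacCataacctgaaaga

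Other male-biased genes fell too. Hsd3b5, a steroid reductase of male liver, was at 96.6 and 197 CPM in the WT-Control libraries and 99.3 and 112 in Elf4-/- Control, against 1.26 and 1.12 in WT-EtOH and 0 and 1.59 in Elf4-/- EtOH. No EtOH library came near the controls, and the change was -6.93 ± 0.64 in WT and -6.92 ± 0.76 in Elf4-/- mice, -6.93 ± 0.47 (edgeR adjusted p = 7.05e-05) over both, with a difference between genotypes of 0.01 (95% interval -2.20 to 2.21). Selenbp2, a selenium-binding protein, changed by -5.95 ± 0.51 (edgeR adjusted p = 0.000657), Serpina1e, an alpha-1 antitrypsin, from 3883 ± 685 CPM to 129 ± 117 CPM (SD, n = 4 each, -4.96 ± 0.52, edgeR adjusted p = 0.00105), and Slco1a1, an organic anion transporter, by -2.20 ± 0.28 (edgeR adjusted p = 0.00121). Serpina12 (vaspin), which is not in the male-biased list but was among the 12 largest falls, changed by -4.59 ± 0.41 (edgeR adjusted p = 0.000371). Mup-ps20, a pseudogene of the family, had 1 count over the EtOH libraries against 432 in controls, a ratio of 500 (89.2 to 19780), and WT-Control 2 held most of the control counts.

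On the female-biased side, Cux2, a female-biased repressor of male genes, was at 1.3 and 0.552 CPM in the WT-Control libraries and 1.54 and 0.895 in Elf4-/- Control, against 12.3 and 36.9 in WT-EtOH and 50.05 and 2.39 in Elf4-/- EtOH. Its diets did not overlap, with Elf4-/- EtOH 2 close to the controls (4.50 ± 0.92, edgeR adjusted p = 0.00476). Bcl6, a male-biased repressor under growth hormone control, was at 218 and 184 CPM in the WT-Control libraries and 162 and 189.9 in Elf4-/- Control, against 23.6 and 14 in WT-EtOH and 57.5 and 25.7 in Elf4-/- EtOH. All EtOH libraries were below all controls (-2.75 ± 0.32, edgeR adjusted p = 0.0011).

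The growth hormone and IGF axis itself moved in few members: of 17 tested, 2 rose and 1 fell (17.6% against 24.8% of all genes), and the sign of the median (-0.04) changed between settings. Socs2, a feedback inhibitor of growth hormone receptor signalling, was at 20.9 and 30.7 CPM in the WT-Control libraries and 11.2 and 11.5 in Elf4-/- Control, against 54.5 and 49.1 in WT-EtOH and 13.4 and 28.8 in Elf4-/- EtOH. WT-EtOH libraries lay above WT-Control and the Elf4-/- EtOH libraries above the Elf4-/- controls, but the Elf4-/- EtOH libraries lay within or below the range of WT-Control (0.96 ± 0.22, edgeR adjusted p = 0.0128). Cish, another feedback inhibitor, rose by 2.25 ± 0.58 (edgeR adjusted p = 0.0191), and by 1.47 without Elf4-/- EtOH 2; its call was lost without that library, WT-Control 1 or WT-EtOH 1.

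**Figure D4:**
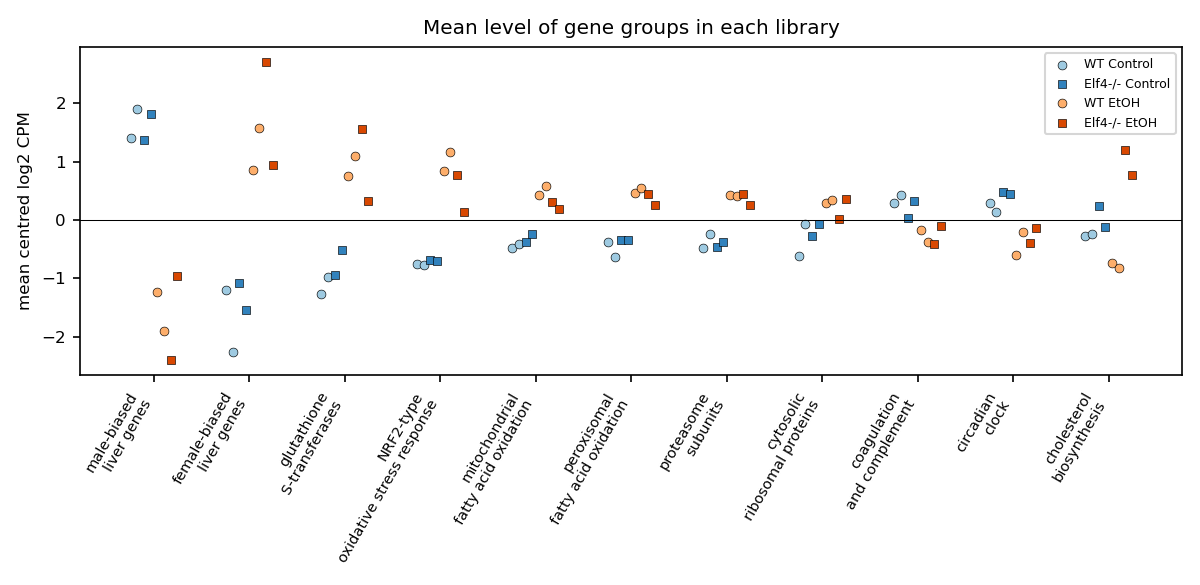
Mean of centred log2 CPM over each of 11 gene groups, 1 point per library, by group. Male-biased genes were lower and female-biased, glutathione S-transferase, NRF2-type, fatty acid oxidation and proteasome genes higher in the EtOH libraries; Elf4-/- EtOH 2 lay nearest to the controls in the male-biased, glutathione S-transferase, NRF2-type, fatty acid oxidation and proteasome groups.

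Genes for secreted plasma proteins fell in part. Of 34 coagulation and complement genes tested of 35, 13 fell and 1 rose, 11 of these alike (41.2% called, median -0.45). C9, which forms the pore of the membrane attack complex, was at 771 and 859 CPM in the WT-Control libraries and 391 and 502 in Elf4-/- Control, against 118 and 68.1 in WT-EtOH and 42.4 and 190.1 in Elf4-/- EtOH. All EtOH libraries were below all controls (-2.54 ± 0.41, edgeR adjusted p = 0.00335). C6 (-2.15 ± 0.30, edgeR adjusted p = 0.00178) and C8a (-1.62 ± 0.28, edgeR adjusted p = 0.00345), of the same complex, changed alike, and F11, coagulation factor XI, changed by -3.86 ± 0.34 in WT and -1.85 ± 0.33 in Elf4-/- mice, with -2.84 ± 0.38 (edgeR adjusted p = 0.00178) over both. C3 was the member that rose. The count of falls was 8 without WT-Control 2, WT-EtOH 1, WT-EtOH 2 or Elf4-/- Control 2, and 8 where libraries were scaled by their totals alone.

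Apolipoproteins and lipoprotein assembly genes had 2 of 22 higher and 5 lower (31.8% called), with falls of 2 or 3 without either WT-Control library, either WT-EtOH library or Elf4-/- Control 2. Apoa1, the main protein of HDL, had the largest fall in CPM of the genes changed alike and was at 12400 and 20050 CPM in the WT-Control libraries and 14160 and 16530 in Elf4-/- Control, against 4208 and 2191 in WT-EtOH and 5324 and 6700 in Elf4-/- EtOH. Every EtOH library was below every control, with a log2 change of -1.85 ± 0.33 (edgeR adjusted p = 0.0049), -2.34 ± 0.40 in WT and -1.35 ± 0.40 in Elf4-/- mice. Scarb1, the HDL receptor, changed by -0.78 ± 0.16 (edgeR adjusted p = 0.00819). Among 25 acute-phase proteins 3 rose and 1 fell (16% called, under the 24.8% of all genes), and rises numbered 0 or 1 without WT-Control 1, WT-EtOH 1, either Elf4-/- Control library or Elf4-/- EtOH 1; Crp rose by 0.87 ± 0.20 (edgeR adjusted p = 0.0111) and the ceruloplasmin gene Cp changed by -0.78 ± 0.25 (edgeR adjusted p = 0.0423), and neither kept its call with each library left out. Both lists' medians changed sign between settings.

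Bile acid genes moved both ways, 5 of 25 higher and 4 lower (36.0% called, median -0.12, with a sign that changed between settings). Cyp39a1, an oxysterol hydroxylase, rose by 2.02 ± 0.31 (edgeR adjusted p = 0.00226), and Nr0b2 (SHP), the receptor that represses bile acid synthesis, changed by -1.26 ± 0.21 (edgeR adjusted p = 0.00317). The bile acid importer Slc10a2 changed by -2.20 ± 0.64 (edgeR adjusted p = 0.0323), and by -3.65 without Elf4-/- EtOH 2; its call was lost without WT-Control 1, WT-EtOH 1, WT-EtOH 2 or Elf4-/- Control 2. Falls numbered 2 without WT-EtOH 1, WT-EtOH 2 or Elf4-/- Control 2.

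Central metabolism changed gene by gene. In gluconeogenesis and glycolysis 7 of 29 rose and 6 fell (44.8% called), and falls numbered 3 without WT-Control 2, WT-EtOH 1 or WT-EtOH 2. Pgk1, phosphoglycerate kinase, rose from 26.2 ± 8 CPM to 106 ± 24.9 CPM (SD, n = 4 each, 2.04 ± 0.24, edgeR adjusted p = 0.00094), Ldha by 1.61 ± 0.28 (edgeR adjusted p = 0.00373), 2.17 ± 0.31 in WT and 1.05 ± 0.31 in Elf4-/- mice, and Gys2, liver glycogen synthase, changed by -1.48 ± 0.24 (edgeR adjusted p = 0.00267). Gys2 was at 513 and 485 CPM in the WT-Control libraries and 467 and 462 in Elf4-/- Control, against 165 and 203 in WT-EtOH and 96.1 and 226 in Elf4-/- EtOH, with no overlap between diets.

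In the urea cycle and ammonia handling 1 of 14 rose and 3 fell (28.6% called, near the 24.8% of all genes). Glul, glutamine synthetase of pericentral hepatocytes, was at 603 and 621 CPM in the WT-Control libraries and 730.5 and 767 in Elf4-/- Control, against 2130 and 1956 in WT-EtOH and 2614 and 1848 in Elf4-/- EtOH. The diets did not overlap, with changes of 1.74 ± 0.26 in WT and 1.57 ± 0.26 in Elf4-/- mice, a difference of -0.16 (95% interval -0.98 to 0.66) and 1.66 ± 0.19 (edgeR adjusted p = 0.000911) over both. Arg1, which cleaves arginine to urea, changed by -1.14 ± 0.22 (edgeR adjusted p = 0.00551), and Gls2, liver glutaminase, by -1.29 ± 0.28 (edgeR adjusted p = 0.0113), -1.95 ± 0.29 in WT and -0.64 ± 0.29 in Elf4-/- mice. Amino acid catabolism had 2 of 28 higher and 4 lower (21.4% called, under the 24.8% of all genes). Its falls numbered 0 or 1 without either WT-Control library, either WT-EtOH library or Elf4-/- Control 2, and 8 without Elf4-/- EtOH 1; Oat, ornithine aminotransferase, rose by 1.71 ± 0.30 (edgeR adjusted p = 0.00425), 1.10 ± 0.33 in WT and 2.33 ± 0.33 in Elf4-/- mice. In the methionine and one-carbon list 2 of 24 rose and 1 fell (12.5% against 24.8%), and none kept its call with each library left out; Gnmt, which uses up S-adenosylmethionine, had a log2 change of 1.18 ± 0.31 (edgeR adjusted p = 0.0219). Pericentral Wnt-target genes had 6 of 18 higher and 1 lower (38.9% called); the glutamate transporter Slc1a2 rose by 1.39 ± 0.23 (edgeR adjusted p = 0.00301), and rises numbered 3 without WT-EtOH 1.

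Clock genes fell in part: of 18 tested, 9 fell and 1 rose, all but 1 of these 10 alike (55.6% called, median -0.54), 5 falls kept the call with each library left out, and 4 fell where libraries were scaled by their totals alone. Dbp, a clock-controlled bZIP activator, was at 361 and 373 CPM in the WT-Control libraries and 340.3 and 295 in Elf4-/- Control, against 16.8 and 66.5 in WT-EtOH and 19.8 and 92.3 in Elf4-/- EtOH. The diets did not overlap (-2.82 ± 0.46, edgeR adjusted p = 0.00344). The hour at which livers were taken was not given in the sources used here. Its part in the changes of the clock genes was not tested. Nr1d1 (REV-ERB alpha, a clock repressor) was at 197 and 229.8 CPM in the WT-Control libraries and 131 and 77 in Elf4-/- Control, against 21.4 and 38.2 in WT-EtOH and 20.9 and 34.9 in Elf4-/- EtOH (-2.37 ± 0.28, edgeR adjusted p = 0.00107), and Bhlhe41 and Ciart, also repressors in the clock, changed by -2.45 ± 0.36 (edgeR adjusted p = 0.00166) and -1.74 ± 0.35 (edgeR adjusted p = 0.00685). Nr1d1 overlaps Thra, the thyroid hormone receptor alpha gene on the opposite strand, which changed by -2.41 ± 0.28 (edgeR adjusted p = 0.00102), and whether the counting used strand is not given in the sources used here, so their reads cannot be told apart.

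Nuclear receptors had 1 of 25 higher and 5 lower, a share called of 24%, near the 24.8% of all genes. Pparg, the lipid-storage receptor that normal liver holds low, was at 3.17 and 1.84 CPM in the WT-Control libraries and 2.56 and 4.33 in Elf4-/- Control, against 9.86 and 11.8 in WT-EtOH and 10.04 and 17 in Elf4-/- EtOH. All EtOH libraries were above all controls, 2.11 ± 0.44 in WT and 2.0 ± 0.39 in Elf4-/- mice (2.05 ± 0.28, edgeR adjusted p = 0.00149). Rara, a retinoic acid receptor, changed by -1.39 ± 0.27 (edgeR adjusted p = 0.00583). The list's median of -0.18 changed sign when libraries were scaled by their totals alone. Of 17 hepatocyte transcription factors 2 rose and 3 fell (29.4% called), with a median whose sign changed between settings; falls numbered 1 without WT-Control 2, either WT-EtOH library or Elf4-/- Control 2, and 6 without Elf4-/- EtOH 2, and rises 1 without either WT-EtOH library or Elf4-/- Control 2.

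Most proteasome genes rose among the 31 subunits listed, a list without Psmb9. That subunit, counted with the antigen presentation genes, was called lower, with a log2 change of -0.71. Its call did not hold with each library left out. All 31 proteasome subunits were tested and 22 rose, all alike, with none lower (71.0% called against 24.8%; median 0.70), and 19 kept the call with each library left out. Psmd13, of the 19S lid, was at 6.71 and 7.91 CPM in the WT-Control libraries and 7.58 and 6.71 in Elf4-/- Control, against 50.7 and 41.3 in WT-EtOH and 29.6 and 28 in Elf4-/- EtOH. Its EtOH libraries lay well above the controls (2.32 ± 0.18, edgeR adjusted p = 0.000163; 2.65 ± 0.22 in WT and 2.0 ± 0.21 in Elf4-/- mice). Psmd14, the lid's deubiquitinase, rose by 1.38 ± 0.15 (edgeR adjusted p = 0.000722), Psmb4 of the core by 1.33 ± 0.21 (edgeR adjusted p = 0.00249), and Psma5 of the outer ring by 1.25 ± 0.20 (edgeR adjusted p = 0.00265). Where libraries were scaled by their totals, 28 rose.

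Cytosolic ribosomal proteins rose in 37 of 83 tested, 30 alike, and none fell, with 46 not called (44.6% called against 24.8% of all genes, median 0.52). Rpl41 was at 92.8 and 127 CPM in the WT-Control libraries and 105 and 111 in Elf4-/- Control, against 324 and 299.5 in WT-EtOH and 218 and 192 in Elf4-/- EtOH, with no overlap between diets (1.22 ± 0.18, edgeR adjusted p = 0.00181); Rpl3 (1.21 ± 0.15, edgeR adjusted p = 0.00115), Rpl5 (1.20 ± 0.20, edgeR adjusted p = 0.00283) and Rps3a1 (1.28 ± 0.24, edgeR adjusted p = 0.00562) rose by close amounts. The count fell to 20 without WT-Control 1, 16 without WT-EtOH 1, 17 without WT-EtOH 2 and 23 without Elf4-/- Control 1, and 16 genes kept the call with each library left out. Ribosomal protein genes have many processed pseudogenes, and how the authors' counting treated reads with several matches was not given in the sources used here.

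Of 44 nuclear-encoded respiratory chain subunits 15 rose and none fell, 9 alike (34.1% called against 24.8% of all genes, median 0.24). Atp5b, the catalytic subunit of ATP synthase, rose from 179 ± 44.7 CPM to 549 ± 93.1 CPM (SD, n = 4 each, 1.61 ± 0.23, edgeR adjusted p = 0.00168), Cox5a of complex IV by 1.77 ± 0.25 (edgeR adjusted p = 0.00173), and Sdha of complex II by 1.14 ± 0.19 (edgeR adjusted p = 0.003). Genes of the mitochondrial genome did not rise with them: 3 of 24 fell, none alike (12.5% called, under the 24.8% of all genes), with medians of -1.89 in WT and 0.11 in Elf4-/- mice. The tRNA gene mt-Ty was at 143 and 66 CPM in the WT-Control libraries and 40.6 and 38.5 in Elf4-/- Control, against 29.7 and 18.6 in WT-EtOH and 22.2 and 20.4 in Elf4-/- EtOH (-1.52 ± 0.30, edgeR adjusted p = 0.00676). Of the 3, 1 was called when either WT-EtOH library was left out, and 6 fell without Elf4-/- EtOH 1.

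Chaperones of the heat shock and unfolded protein response rose in 10 of 27 and fell in none, 6 alike (37.0% called, median 0.39). Hspb1, a small heat shock protein, rose by 2.20 ± 0.28 (edgeR adjusted p = 0.0013). Hspd1 (1.36 ± 0.19, edgeR adjusted p = 0.0016) and Hspe1 (1.44 ± 0.20, edgeR adjusted p = 0.00159), the mitochondrial chaperonin and its partner, rose together and lie head to head with an overlap on opposite strands. In iron handling 5 of 17 rose and none fell (29.4% called, near the 24.8% of all genes); Fth1, the ferritin heavy chain, was at 457 and 737 CPM in the WT-Control libraries and 529 and 661 in Elf4-/- Control, against 1880 and 2340 in WT-EtOH and 2993 and 1126 in Elf4-/- EtOH (1.81 ± 0.30, edgeR adjusted p = 0.00309), and Tfrc, the transferrin receptor, rose by 1.19 ± 0.21 (edgeR adjusted p = 0.00392). Iron rises numbered 2 or 3 without either WT-Control library, either WT-EtOH library or Elf4-/- Control 2. Of 26 cell cycle genes 5 rose and 1 fell (23.1% called, near the 24.8% of all genes), and 2 kept the call throughout. Rises numbered 9 without Elf4-/- EtOH 2, and 2 or 3 without any 1 of the others but WT-Control 1; Gadd45b, a stress-induced growth regulator, was at 2.98 and 2.21 CPM in the WT-Control libraries and 1.74 and 0.895 in Elf4-/- Control, against 23.4 and 49.2 in WT-EtOH and 68.4 and 3.71 in Elf4-/- EtOH, with Elf4-/- EtOH 2 close to the controls (4.24 ± 0.79, edgeR adjusted p = 0.00396). Cdkn1a, the p21 inhibitor, had a log2 change of 3.58 ± 1.0 (edgeR adjusted p = 0.0219), and of 1.62 without Elf4-/- EtOH 1; its call was lost without that library, WT-EtOH 2 or either Elf4-/- Control library.

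Few genes of the inflammation, interferon and antigen presentation lists kept a call throughout. Of 15 inflammation genes tested of 23, 4 rose and 1 fell (33.3% called against 24.8%), and rises numbered 2 without WT-Control 1, either WT-EtOH library or either Elf4-/- Control library; 2 kept the call with each library left out; Cxcl10, a T-cell chemokine, rose from 2.94 ± 1.05 CPM to 8.82 ± 3.92 CPM (SD, n = 4 each, 1.53 ± 0.35, edgeR adjusted p = 0.0112). Tlr4, the endotoxin receptor, had a log2 change of 2.02 ± 0.63 (edgeR adjusted p = 0.0302), and Cd14, its co-receptor, of 1.53 ± 0.48 (edgeR adjusted p = 0.0377); both stayed under 5 CPM in every library, and neither kept its call with each library left out. Of 18 interferon-response genes 1 rose and 2 fell (16.7% called). Of 17 genes of antigen presentation 2 rose and 2 fell (23.5%). Both shares were under the 24.8% of all genes, and no gene in either list was called throughout. In the matrix and fibrosis list 8 of 17 tested rose and 1 fell (52.9% called, median 1.08). Sparc, a collagen-binding matrix protein, was at 16.8 and 7.73 CPM in the WT-Control libraries and 25.9 and 19.5 in Elf4-/- Control, against 62.8 and 75.4 in WT-EtOH and 105 and 38.2 in Elf4-/- EtOH (2.05 ± 0.33, edgeR adjusted p = 0.00288), and Timp2 rose by 1.83 ± 0.39 (edgeR adjusted p = 0.0084). Rises numbered 3 to 5 without any 1 of 6 libraries: both WT-Control, both WT-EtOH, Elf4-/- Control 2 and Elf4-/- EtOH 1.

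Some markers of cells other than hepatocytes rose. The share called was above the 24.8% of all genes for Kupffer cell and endothelium markers and near it for stellate cell markers. Of 13 Kupffer cell and macrophage markers tested of 14, 8 rose and none fell, 3 alike (61.5% called), and their summed level was 228 to 320.1 CPM in control-diet libraries and 318 to 894 CPM in EtOH libraries, with Elf4-/- EtOH 2 the lowest of the latter. Marco, a scavenger receptor, was at 2.61 and 2.02 CPM in the WT-Control libraries and 4.3 and 1.79 in Elf4-/- Control, against 84.2 and 33.2 in WT-EtOH and 28.5 and 16.2 in Elf4-/- EtOH (3.66 ± 0.46, edgeR adjusted p = 0.00112), and the complement component C1qb rose by 1.55 ± 0.22 (edgeR adjusted p = 0.00175). Of 13 sinusoidal endothelium markers 9 rose, none alike (69.2% called, median 2.38 in WT and 0.59 in Elf4-/- mice), with a sum of 110.03 to 347 CPM in control-diet libraries and 335 to 674 CPM in EtOH libraries, and without WT-Control 1 the count was 1. Of 11 stellate cell markers 3 rose (27.3% called, and 5 rose without Elf4-/- Control 1 or Elf4-/- EtOH 2), with a sum of 62.9 to 253 CPM in control-diet libraries and 337 to 582 CPM in EtOH libraries; Dcn, a matrix proteoglycan, rose by 2.38 ± 0.35 (edgeR adjusted p = 0.00232) and Lrat, which stores retinol, by 2.01 ± 0.34 (edgeR adjusted p = 0.00309). Every tested marker of these 3 cell types had counts under both diets, and the part of these cells in the changes of the inflammation, matrix and other lists was not tested.

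Hepatocyte markers held the most reads of any marker list in every library. Of 12 tested, 1 rose and 1 fell (16.7% called, under the 24.8% of all genes). They summed to 62048 to 87637 CPM in control-diet libraries and 43501 to 66388 CPM in EtOH libraries. Neutrophil markers were near the floor, with 4 of 12 tested and a sum of 5.82 to 9.7 CPM in control-diet libraries and 6.1 to 17.4 CPM in EtOH libraries. Of 14 lymphocyte markers 7 were tested, summing to 7.01 to 9.02 CPM in control-diet libraries and 6.69 to 16.7 CPM in EtOH libraries; Gzma had 4 counts in control-diet libraries against 72, a ratio of 15.6 (5.82 to 58.7), and Cd4 changed by -2.64 ± 0.59 (edgeR adjusted p = 0.00821) at levels under 4 CPM. Bile duct markers summed to 129 to 234 CPM in control-diet libraries and 117 to 155 CPM in EtOH libraries. Of 8 tested, 2 fell, Sox9 and Spp1, neither of which kept its call with each library left out. The other 6 were not called, and the share called was 25%, near the 24.8% of all genes. The median log2 change of the 8 was 0.38, above 0, with a sign that changed between settings. Red cell markers summed to 87.4 to 229 CPM in control-diet libraries and 89.3 to 117 CPM in EtOH libraries. Of 5 tested, 2 fell (40% called against 24.8% of all genes), with Alas2 changed by -1.61 ± 0.33 (edgeR adjusted p = 0.00744). Adipose markers summed to 27.4 to 37.1 CPM in control-diet libraries and 35.7 to 61.2 CPM in EtOH libraries, with Fabp4 higher (1.92 ± 0.34, edgeR adjusted p = 0.00384) and Lipe lower (-0.55 ± 0.15, edgeR adjusted p = 0.0248).

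Pancreatic acinar markers were close to 0, 3.86 to 9.1 CPM in control-diet libraries and 2.75 to 4.68 CPM in EtOH libraries, with 1 of 10 tested. Of 9 intestinal epithelium markers 5 were tested. Lgals4 and Fabp2 held nearly all of their sum of 182 to 257 CPM in control-diet libraries and 179 to 259 CPM in EtOH libraries, with log2 changes of 0.08 ± 0.23 (edgeR adjusted p = 0.823) and -0.23 ± 0.30 (edgeR adjusted p = 0.603), while Tff3, a trefoil peptide of goblet cells and bile ducts, had 262 counts over the control-diet libraries against 2 in EtOH libraries, a ratio of 152 (41.5 to 1258; -6.91 ± 1.42, edgeR adjusted p = 0.000722).

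**Figure D5:**
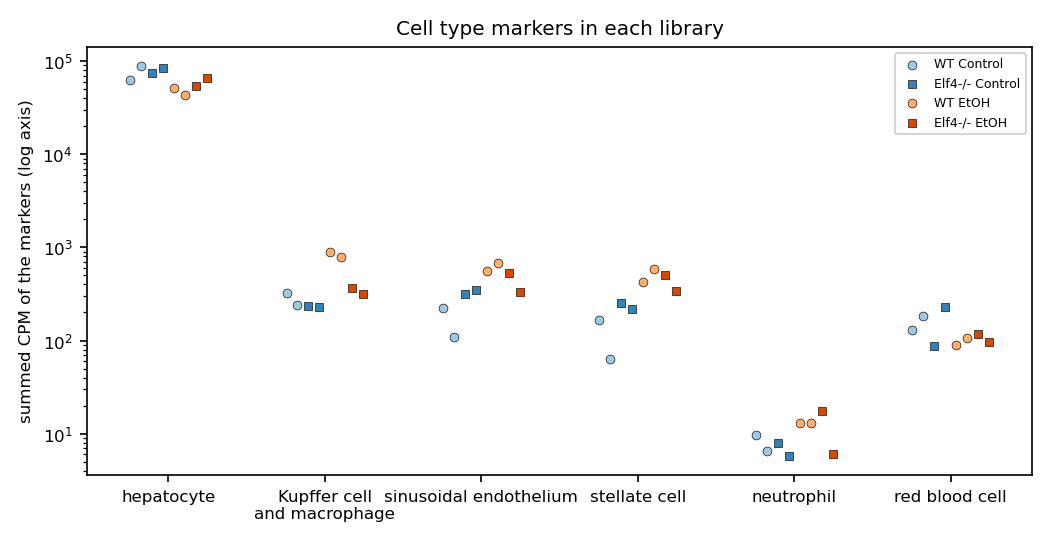
Summed CPM of marker genes of 6 cell types in each library, with cell types along the x axis, a log y axis and points coloured by group. Stellate cell sums were higher in all EtOH libraries, Kupffer cell sums were highest in WT-EtOH (up to 894 CPM), and Kupffer cell and endothelium sums of Elf4-/- EtOH 2 lay within the range of the controls, while hepatocyte sums ranged from 62048 to 87637 CPM in control-diet and 43501 to 66388 CPM in EtOH libraries.

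No gene passed the edgeR test of a genotype difference with all libraries in the fit. The 5 called genes with the smallest interaction p were Gm45053, Acot1, Acot3, Retsat and Akr1c19, all higher with EtOH in both genotypes and with a numerically larger change in WT. The Elf4-/- minus WT difference of the log2 change was -4.09 (95% interval -5.61 to -2.56) for Acot1 and -4.09 (95% interval -5.74 to -2.44) for Acot3, and their WT-Control levels were 0.373 to 1.12 CPM, so that the WT change rests on few counts. Retsat, retinol saturase, was at 66.8 and 55.8 CPM in the WT-Control libraries and 99.4 and 105 in Elf4-/- Control, against 526 and 668 in WT-EtOH and 261 and 282 in Elf4-/- EtOH; both genotypes rose without overlap, 3.29 ± 0.22 in WT and 1.41 ± 0.22 in Elf4-/- mice, with a difference of -1.87 (95% interval -2.57 to -1.18). Akr1c19, an aldo-keto reductase, rose by 2.80 ± 0.21 in WT and 1.09 ± 0.20 in Elf4-/- mice. Gm45053 overlaps Retsat on the opposite strand, and without strand their reads cannot be told apart. Adjusted p for the difference was 0.129 for Gm45053, Acot1 and Acot3, 0.189 for Retsat and 0.202 for Akr1c19 in the edgeR test.

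Promoter windows of the genes changed alike were searched for known motifs. RefSeq windows were matched for 10294 of the 13993 genes (13173 windows, with 944 genes changed alike that rose and 903 that fell), and both strands were searched. A gene could have more than 1 window. A direct repeat with 1 base between, AGGNCANAGGNCA, as PPAR alpha binds, was in 35 of all 13173 windows (0.266%). It was in 6 of 1195 windows of genes that rose alike (0.502%) and 6 of 1245 of those that fell alike (0.482%). A direct repeat with 4 bases between, AGGNCANNNNAGGNCA, as CAR and PXR bind, was in 0.228%, 0.251% and 0.321% (30, 3 and 4 windows). The STAT motif TTCNNNGAA was in 6.89%, 7.36% and 5.86%, and the antioxidant element TGACNNNGC, which NRF2 binds, in 14.2%, 13.5% and 14.3%. Such matches are a description of these letters in 300 bases near the start and say nothing of binding.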

How the data were processed

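Liver RNA-seq libraries of 8 samples from male mice, 2 in each of 4 groups of genotype and diet, were analysed from the table of gene counts. By their stated methods, the authors used Trizol for RNA, sequenced Illumina libraries from both ends, checked reads with FastQC, aligned them to mm10 with HISAT2 and counted them per gene with HTSeq; the deposited values are whole-number counts that were not normalised. The gene annotation, strand setting and tool versions were not given in the sources used here. No deposited column of per-sample values was left unmapped, and 968 blank lines were dropped.

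Samples were grouped by the labels. Genes were kept by filterByExpr on the 4 groups, libraries were scaled by TMM, and the diet effect was tested with edgeR 4.0.16 (R 4.3.3), glmQLFit and glmQLFTest, in an additive model of genotype and diet with Benjamini-Hochberg adjustment at 0.05. Changes within each genotype and the interaction came from a 4-group model. Log2 changes are EtOH minus Control, given ± the standard error of the fit, so a negative value is lower with EtOH. CPM values, in which counts are scaled to library size, used the TMM-scaled library sizes, means are ± SD, and the log2 CPM of principal components used a prior count of 2. The intervals of ratios for genes with few counts are exact 95% intervals and cover counting error only. DESeq2 1.42.0 was an alternative, among 20 tried. The script was tested on simulated counts.

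The gene lists and the rule for names were chosen with earlier results of these data known. Named genes were the 12 largest rises and 12 largest falls among genes changed alike averaging 50 counts or more, with no overlap, the 5 changed most in mean CPM in each direction, up to 4 called members per list (the 2 most abundant where fewer than 2 were called), Elf4, and the 5 called genes with the smallest interaction p. The 6 Cyp genes that fell and C3 were named after their values were seen. Coordinates are from GENCODE M21 (GRCm38), in which 18748 gene symbols matched 1 gene. Some genes that the rule names are not reported here.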

Additional observations from a re-analysis of the deposited data

Results flagged for a closer look

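Among the 4 EtOH or the 4 control-diet libraries, 1 library stood apart from the other 3 for 3 genes, by a gap to its nearest neighbour that exceeded Dixon's 95% critical value for its share of the whole range of 4 samples. In all, 74 such groups were tested, and chance alone gives about 1 in 20. For genes, the gap and the range were taken on log2 CPM with a prior count of 2, while the levels below are printed as CPM. For Hsd3b5, a male-biased steroid reductase, Elf4-/- EtOH 1 was the low library among the EtOH libraries, at 0 CPM beside 1.26, 1.12 and 1.59 (gap over range 0.849). For Mup-ps20, a pseudogene of the urinary proteins, WT-EtOH 1 was the only EtOH library with a count, at 0.126 CPM (gap over range 1). This was 1 count. With no count in the other EtOH libraries the gap fills the range by construction, so that flag rests on 1 count. For Pdk4, the kinase that blocks pyruvate dehydrogenase, Elf4-/- EtOH 2 was low, at 8.36 CPM beside 134.8, 185.6 and 219.2 (gap over range 0.85). The causes were not tested.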

How the results depend on the processing

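Of the 3468 genes called, 1586 (45.7%) kept the call with each library left out in turn, and all 3468 kept their sign. With 1 library left out, the count of genes higher ran from 931 to 1892 and lower from 890 to 2074, and genes changed alike from 744 to 1343 (higher) and 715 to 1485 (lower). The libraries whose removal moved a count by over 1.5 times were WT-Control 1 (1073 higher, 1085 lower), WT-EtOH 1 (931 and 890), WT-EtOH 2 (984 and 966) and, for genes lower, Elf4-/- Control 2 (1129). The interaction count ran from 0 to 139, with 139 without Elf4-/- EtOH 2, 62 without Elf4-/- EtOH 1 and 1 without WT-EtOH 1. A group left with 1 sample was assumed to vary like the others.

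Scaling by library totals alone shifted the median change of all genes to 0.211 and gave 2110 genes higher and 784 lower (72.9% higher against 50.3%), with 633 changed alike lower. DESeq2 called 107 genes in the interaction and the fit with no filter on low counts 7; the cause was not tested. The Elf4-/- libraries alone gave 22 genes higher and 18 lower, and the WT libraries alone 1758 and 1755; with 1 genotype there is no value for genes changed alike or for the interaction. DESeq2 gave 1961 higher and 1935 lower, and a ratio of 1 in 3 for genes changed alike gave 1611 and 1563.

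With the replicate number as a block, 1589 genes were higher and 1559 lower, 1183 and 1179 changed alike, and 0 passed the interaction. Deviations of samples with the same number correlated between -0.134 and 0.114, so the numbers were not taken to pair the samples.

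Of 186 called genes named, 130 kept the call with each library left out and 15 under every alternative. Of 3509 values of named genes over the alternatives, 475 lost the call, 169 of them in the Elf4-/- libraries alone, and 0 reversed. Of 946 list medians, 841 stayed within 1 SD.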
